A study of Danio rerio with 6 samples.

Results

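The genes described here encode lysosomal proteins of zebrafish brain macrophages, namely cathepsins and other proteases, lipid and sugar hydrolases, sterol transport proteins and proteins of the lysosomal membrane. They were chosen by gene symbol, from a list drawn up with earlier results of these data known: every row with a cathepsin symbol in lower case, and the rows of 25 further symbols of well known lysosomal genes, 6 of which matched no row by symbol. The choice gave 36 rows among the 21860 genes of the deposited table, and these are called the lysosomal genes from here on. They comprise 15 cysteine cathepsins, 5 genes of other proteases and of the inhibitor cystatin C, 7 lipid and sugar hydrolases, 3 genes of sphingolipid activation and sterol transport, and 6 membrane proteins. RNA came from cells of adult brains of the mpeg1-GFP line, whose reporter is driven by a macrophage promoter, in fish of strain TLF x AB aged 9 to 12 months. The 6 libraries form 3 groups of 2, namely wild-type fish as control, csf1ra-/- fish, and csf1ra-/-;b+/- fish, called compound mutants below, which carry 1 mutant copy of csf1rb as well. Both genes encode receptors for the macrophage growth factors CSF1 and IL-34, and every library shares the reporter, the strain and the age range. No label states whether replicate libraries stem from different fish, and the p-values therefore reflect variation among the libraries at hand, part or all of which may be technical.

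Lysosomes are acidic compartments in which macromolecules taken up by endocytosis or phagocytosis, or delivered by autophagy, are broken down. Cathepsins cut proteins, a set of hydrolases removes sugars and fatty acids from glycolipids and glycogen, and transporters of the membrane carry the products out. Microglia, the macrophages of the brain, clear dying cells and myelin fragments and depend heavily on this system, and inherited loss of several of these enzymes causes lysosomal storage disease with neurodegeneration in humans.

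Values are called signal: reads of a gene divided by the effective size of its library, as the authors deposited them under the heading CPM. They are not corrected for gene length, so levels are compared between libraries and not between genes. Total reads were 4241988 and 7830510 in control, 8028386 and 7874979 in csf1ra-/- libraries, and 15011963 and 13543998 in compound mutants. The libraries also differed in the number of genes with reads, from 20119 to 21452 in control and csf1ra-/- libraries against 18383 and 18047 in compound mutants. Control replicate 1 stood apart in its effective size, which was 1.73 times its total reads, against 0.802 to 1.07 times in the other libraries. The csf1ra signal was 37.7 and 67.9 in control, 42.6 and 24.3 in csf1ra-/- libraries, and 18.5 and 7.73 in compound mutants, and csf1rb was 901 and 1356, 1432 and 783, and 329 and 173. No library was without reads of either receptor, and these levels do not check the alleles. In sorted bulk cells, fewer cells of a type and less RNA per cell cannot be told apart.

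The lysosomal genes were, as a group, higher in compound mutants, and the cathepsin S gene ctss2.1 was the one among them that passed the test. They took 0.580% and 0.631% of reads in the controls and 0.677% and 0.451% in csf1ra-/-, against 0.896% and 0.885% in compound mutants. The share of both compound mutant libraries was above that of the other 4, while the csf1ra-/- libraries lay on either side of the controls. The widest exact 95% binomial interval, in control replicate 1, ran from 0.573% to 0.587%, and such intervals cover counting error only. The cysteine cathepsins took 0.211% to 0.263% of reads in control and csf1ra-/- libraries and 0.411% and 0.381% in compound mutants. The lipid and sugar hydrolases took 0.0299% to 0.0714% in the former and 0.0892% and 0.0989% in the latter. The activator and sterol transport genes took 0.137% to 0.155% of reads in 5 libraries and 0.0925% in csf1ra-/- replicate 2, so that their share did not separate the groups.

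**Figure D1:**
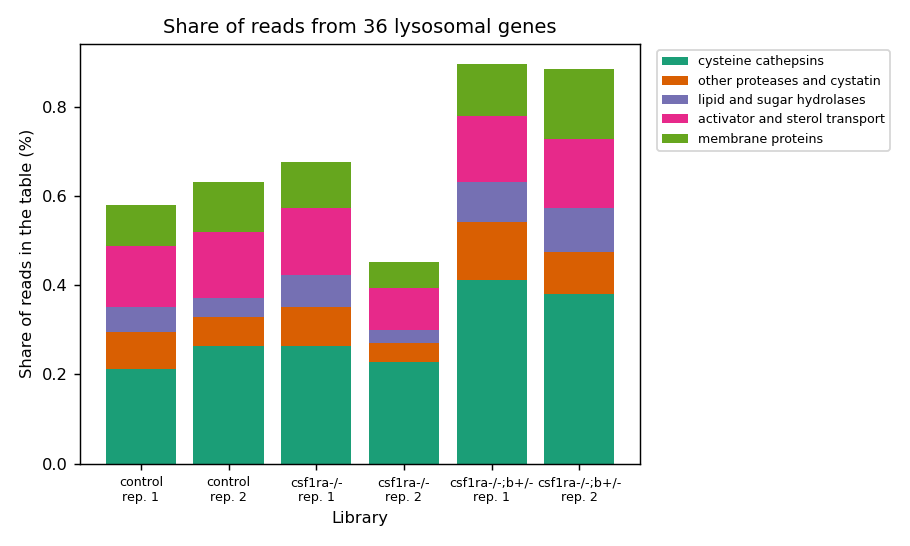
Share of reads in the table (%) taken by the 36 lysosomal genes in each library, stacked by role (colours). The total is 0.896% and 0.885% in the csf1ra-/-;b+/- libraries and 0.451% to 0.677% in the other 4.

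Differences between groups were tested with limma on log2(signal + 1) for the 21316 genes whose signal reached 1 in 2 or more libraries, with p adjusted over all genes tested and a threshold of 0.05. Differences below are on that log2 scale, which understates the change of low genes. All 36 lysosomal genes were tested, although mcoln1b reached a signal of 1 in control libraries alone and so had to differ, which makes its place in the counts below a description. Between compound mutants and control, 1 of the 36 passed as higher, against 0.868% of all genes, and 0 passed as lower, against 0.347% of all genes. At an unadjusted p under 0.05, 17 were higher (11.8% of all genes) and 3 were lower (15.0% of all genes). In 27 of the 36 both compound mutant libraries were above both controls, against 25.3% of all genes, and in 5 both were below, against 33.3% of all genes. The median difference of the 36 was 1.32, and that of all genes tested was -0.16. The 4 genes with 0 reads in compound mutants lay below this median as fitted, so setting them at their bound could not move it. Among genes with at least 50 reads in 2 libraries the medians were 1.45 for 32 lysosomal genes and 0.50 for all 12620. This filter counts reads, so genes meet it more easily through the deeper compound mutant libraries. It left 2 of the 32 lysosomal genes below 0, against 5 of the 36. The part of the filter in these medians was not tested.

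Between compound mutants and control the direction of most lysosomal genes did not depend on the scaling. With values rescaled to total reads the median over every gene tested came to -0.72, and that of the lysosomal genes was 0.62. There 27 of 36 differences were above 0 (31.9% of all genes), against 31 as deposited (46.4% of all genes). The split of all genes that passed also moved, from 185 higher and 74 lower to 102 higher and 136 lower. Under median-ratio scaling the medians were 1.096 for the lysosomal genes and -0.35 for all genes. The genes whose sign changed were scarb2, psap, hexb and cst3 under total reads, with differences of 0.44, 0.40, 0.36 and 0.19 as deposited, and cst3 under median-ratio scaling. By role, as deposited, the median difference was 1.60 for cysteine cathepsins (11 of 15 above 0), 1.45 for other proteases and the cystatin (5 of 5), 1.39 for lipid and sugar hydrolases (7 of 7), 1.18 for activator and sterol transport (3 of 3) and 1.12 for membrane proteins (5 of 6). Under total reads these medians were between 0.40 and 0.89, so that no role changed direction.

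Between csf1ra-/- and control the calls among the lysosomal genes were close to the background. None of the 36 passed in either direction, where 0.0% of all genes passed, and at an unadjusted p under 0.05 there were 2 higher (5.37% of all genes) and 2 lower (4.8% of all genes). Both csf1ra-/- libraries were above both controls for 9 genes (18.6% of all genes) and below both for 6 (20.2% of all genes). The median difference was 0.37, with 26 of 36 above 0, where 48.8% of all genes were above 0 and their median was -0.03. This median rested on control replicate 1: without that library it was -0.04, with 17 of 36 above 0, where the median of all genes was 0.0046. Scaling to total reads gave a median of -0.13 for the lysosomal genes and -0.45 for all genes. DESeq2 on recovered reads called 1 of the 36, the cathepsin B gene ctsbb, as higher and 0 as lower, against 0.868% and 0.347% of all genes. There edgeR called 0, against 0.0235% of all genes as higher and 0.0141% as lower.

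Between compound mutants and csf1ra-/- none of the 36 passed in limma, where 0.0% of all genes passed as higher and 0.00938% as lower. At an unadjusted p under 0.05, 8 were higher (6.44% of all genes) and 1 was lower (6.39% of all genes). There edgeR called 0, against 0.0422% of all genes in either direction. DESeq2 called ctss2.1 and tpp1 as higher (2.29% of all genes) and both ctslb rows as lower (4.55% of all genes). The groups did not overlap for 20 higher genes (20.0% of all genes) and 3 lower genes (28.9% of all genes). The median difference was 0.80 against -0.17 for all genes, and 31 of 36 were above 0 where 43.9% of all genes were. Among genes with at least 50 reads in 2 libraries the medians were 0.84 for 32 lysosomal genes and 0.19 for all. There 30 of the 32 were above 0, where 56.5% of all genes were. In 23 of the 36 the group means increased from control through csf1ra-/- to compound mutants, against 21.8% of all genes. In 5 of the 36, namely ctsc, ctslb in both rows, ctsll and mcoln1b, they decreased in that order, against 28.1% of all genes. Counted as differences above 0, the first step of the rising order depended on the scaling and on control replicate 1. As deposited, 26 of the 36 differences of csf1ra-/- from control were above 0 (48.8% of all genes). Under total reads 15 were (33.0% of all genes), and without control replicate 1 as deposited 17 were (50.1% of all genes). Set against the median of all genes instead, 26 were above it as deposited, 25 under total reads and 17 without control replicate 1. Both mutant comparisons share the control libraries, and both compound mutant comparisons share the compound mutant libraries.

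**Figure D2:**
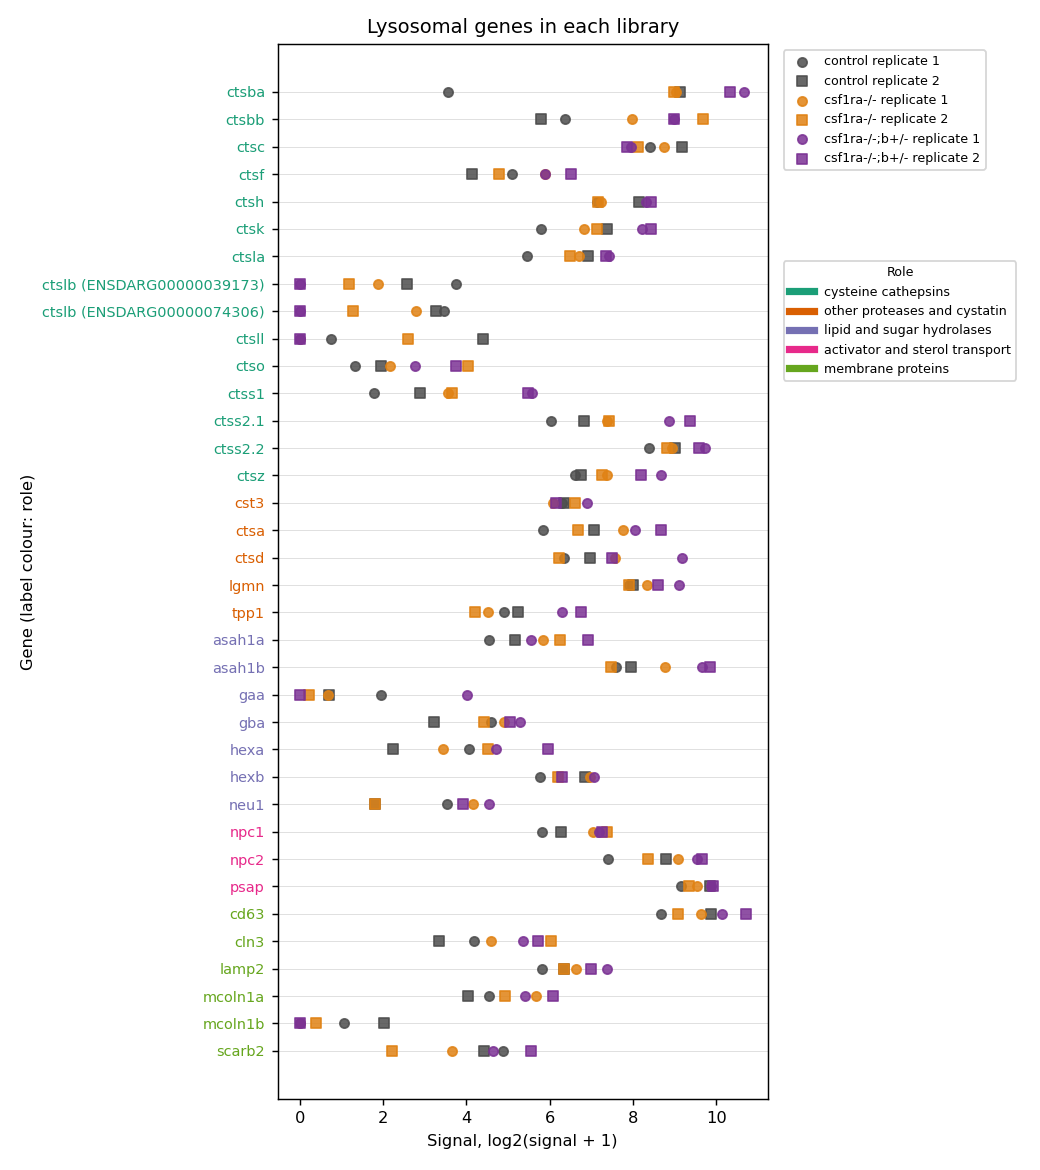
Signal of each lysosomal gene in each of the 6 libraries on a log2(signal + 1) axis, with genes ordered and coloured by role and libraries marked by group colour and replicate shape. Both csf1ra-/-;b+/- libraries lie above both controls for 27 of the 36 genes, and ctsba of control replicate 1 stands far to the left of the other libraries.

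**Figure D3:**
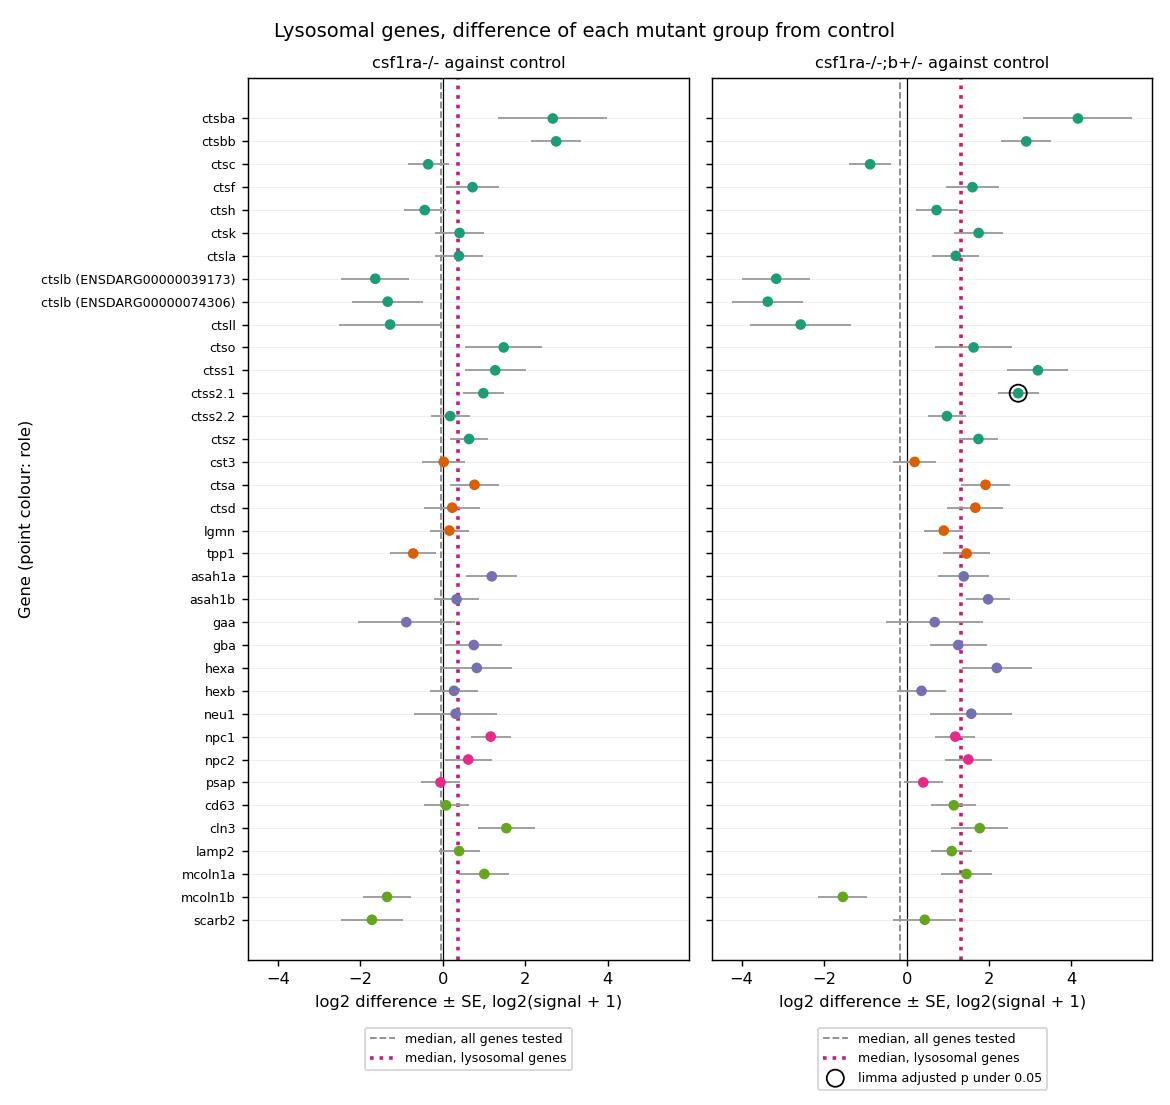
Difference of csf1ra-/- (left) and csf1ra-/-;b+/- (right) from control for each lysosomal gene in log2(signal + 1), with bars of 1 standard error, coloured by role as in the plot of signal by library. The dotted line is the median of the 36 genes (0.37 and 1.32), the dashed line that of all genes tested (-0.03 and -0.16), and the ring marks ctss2.1.

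Cathepsin S is a cysteine protease of antigen presenting cells that trims the invariant chain of MHC class II in mammals, and zebrafish have several copies. The ctss2.1 signal (ENSDARG00000074656) was 64.1 and 112 in control, 166 and 171 in csf1ra-/- libraries, and 468 and 664 in compound mutants. No groups overlapped, and each mutant group lay above the one before it. The mean went from 87.8 ± 33.6 in control to 566 ± 139 in compound mutants (SD, n = 2 each). This rise was 2.71 ± 0.50 on the log2 scale (SE, limma adjusted p = 0.0424). It was the sole call among the lysosomal genes, and it did not hold when any 1 of the 6 libraries was left out, with limma adjusted p between 0.0882 and 0.209. The estimate itself then ranged from 2.31 to 3.10. The difference of compound mutants from csf1ra-/- was 1.72 ± 0.50 (limma adjusted p = 0.267), and that of csf1ra-/- from control was 0.99 ± 0.50 (limma adjusted p = 0.540).

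The copy ctss1 (ENSDARG00000036940) had a signal of 2.45 and 6.42 in control, 10.9 and 11.6 in csf1ra-/- libraries, and 46.8 and 43.3 in compound mutants. Its groups did not overlap either, and the difference of compound mutants from control was 3.18 ± 0.74 (limma adjusted p = 0.0621). The third copy, ctss2.2 (ENSDARG00000013771), was 332 and 511 in control, 487 and 447 in csf1ra-/- libraries, and 855 and 771 in compound mutants. Control and csf1ra-/- overlapped for ctss2.2 and compound mutants were above both, by 0.98 ± 0.47 over control (limma adjusted p = 0.211). The make-up of cathepsin S signal, compared between libraries and not between copies since signal is not per length, differed between groups. The ctss2.1 row gave 16.1% and 17.7% of the summed signal of the 3 genes in control, 25.03% and 27.1% in csf1ra-/- libraries, and 34.2% and 44.9% in compound mutants. In the GRCz12tu annotation of RefSeq, ctss2.1 and ctss2.2 are direct neighbours and lie beside ctsk. Gene order does not tell how alike their sequences are, and no sequences were used. Reads of near-identical stretches, if there are any, could have been divided between copies in the counting, and this was not tested. The ctsk signal (cathepsin K, the collagen-cutting protease of mammalian osteoclasts) ranged from 54.0 to 165 in control and csf1ra-/- libraries and was 299 and 343 in compound mutants.

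**Figure D4:**
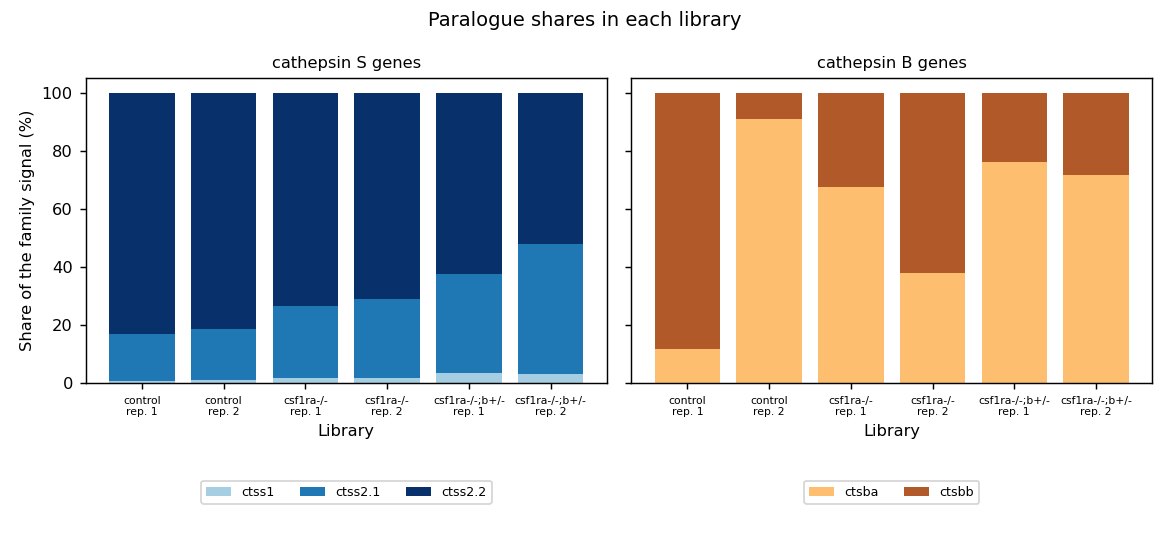
Share (%) of the summed signal of the cathepsin S genes (left) and of the cathepsin B genes (right) taken by each copy in each library. The ctss2.1 share goes from 16.1% and 17.7% in the controls to 34.2% and 44.9% in csf1ra-/-;b+/-, while the ctsba share is 11.7% and 91.1% in the controls.

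The cathepsin B copies behaved differently from each other. Cathepsin B is an abundant lysosomal cysteine protease that can also remove dipeptides from protein ends. The ctsbb signal (ENSDARG00000101051) was 81.5 and 54.7 in control, 252 and 824 in csf1ra-/- libraries, and 504 and 507 in compound mutants. Every mutant library was above both controls, and the compound mutants lay between the csf1ra-/- libraries. The difference from control was 2.75 ± 0.60 in csf1ra-/- (limma adjusted p = 0.359) and 2.90 ± 0.60 in compound mutants (limma adjusted p = 0.0521). Between the mutant groups it was 0.15 ± 0.60. The unadjusted p of 0.00102 for csf1ra-/- against control was the smallest among the 36 genes, and edgeR called ctsbb in compound mutants.

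The ctsba signal (ENSDARG00000055120) was 10.7 and 557 in control, 525 and 505 in csf1ra-/- libraries, and 1613 and 1291 in compound mutants. Control replicate 1 was far below the other 5 libraries, and the compound mutants were above them. The fitted difference of compound mutants from control, 4.16 ± 1.32 (limma adjusted p = 0.102), was the highest among the 36 genes, but it rested on control replicate 1. Without that library it was 1.37 ± 0.37 (limma adjusted p = 0.215), at rank 12, and ctsbb was then the highest at 3.19. For csf1ra-/- against control it was 2.67 ± 1.32 (limma adjusted p = 0.531), and without control replicate 1 it turned to -0.11. The authors' deposited table gives 0.86 for csf1ra-/- and 2.35 for compound mutants against control. The 2 controls differed by 5.57 on the log2 scale for ctsba, the highest gap within a group among the lysosomal genes, where the median gap in control was 0.82.

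For the exopeptidases cathepsin C and cathepsin H, the csf1ra-/- libraries were not above control. The ctsc signal (ENSDARG00000101334), of the enzyme that activates granule serine proteases in mammals, was 337 and 577 in control, 429 and 278 in csf1ra-/- libraries, and 247 and 230 in compound mutants. The compound mutants were the lowest libraries, and their difference from control was -0.89 ± 0.50 (limma adjusted p = 0.277). The ctsh signal was 139 and 283 in control, 150 and 143 in csf1ra-/- libraries, and 316 and 343 in compound mutants. For ctsh the csf1ra-/- libraries lay within the range of the controls and the compound mutants above it, by 0.73 ± 0.51 (limma adjusted p = 0.375). Cathepsin Z, a carboxypeptidase, separated the groups fully: ctsz was 97.3 and 107 in control, 166 and 152 in csf1ra-/- libraries, and 404 and 292 in compound mutants. Its difference between compound mutants and control was 1.74 ± 0.47 (limma adjusted p = 0.0796).

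Of the remaining cysteine cathepsins, ctsla, which encodes the broadly expressed cathepsin L, was 43.0 and 121 in control, 103 and 88.5 in csf1ra-/- libraries, and 171 and 163 in compound mutants. The compound mutants were above every other library for ctsla, as they were for ctsf, at 58.4 and 90.8 against 16.4 to 57.8. The ctso signal was 1.496 and 2.84 in the controls and between 3.51 and 15.5 in the 4 mutant libraries. Differences of ctsla, ctsf, ctsk and ctso between compound mutants and control ran from 1.19 to 1.75, with limma adjusted p from 0.110 to 0.281.

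The cathepsin L-like copies were lower in compound mutants. The symbol ctslb, known in zebrafish embryos as a gene of the hatching gland, is carried by 2 rows. ENSDARG00000074306 had a signal of 10.1 and 8.64 in control, 5.96 and 1.41 in csf1ra-/- libraries, and 0 in both compound mutant libraries. ENSDARG00000039173 had 12.5 and 4.94 in control, 2.69 and 1.25 in csf1ra-/- libraries, and 0 in both compound mutant libraries. The groups did not overlap in either row, and the 144 and 132 reads of the controls stood against 0 in the deepest libraries of the series. With 3 reads over the group taken as the floor, the compound mutants were at least 67.7-fold lower than control for the first of these rows and at least 63.2-fold lower for the second. In limma the p-values adjusted over all genes were 0.0737 and 0.0760, and DESeq2 called both rows. The ctsll signal was 0.680 and 20.0 in control, 0 and 5.02 in csf1ra-/- libraries, and 0 in both compound mutant libraries. It thus differed widely within control and csf1ra-/-, and the bound on the same floor, at least 74.9-fold lower in compound mutants than in control, rested on the 162 reads of control replicate 2. With that library left out, 5 reads remained in control and the bound was 4.92-fold.

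In the GRCz12tu annotation both ctslb rows lie in a cluster with clone-named genes described in the files as cathepsin L1-like, which the choice by symbol left out. These 4 rows held between 51 and 258 reads per control library, between 1 and 55 in csf1ra-/-, and 0 or 1 in compound mutants. One of them, si:dkey-26g8.4, had a signal of 12.9 and 31.9 in control, 4.33 and 1.41 in csf1ra-/- libraries, and 0 in compound mutants. It passed as lower in compound mutants against control (-4.42 ± 0.88, limma adjusted p = 0.0496), and the limma adjusted p of the other 3 was between 0.0546 and 0.0720. It is named for this cluster after its values were seen. Copies of a gene family can share reads, so the counts of single rows are uncertain, although shared reads were not measured here. All rows of this cluster were also lower in both csf1ra-/- libraries than in control. Genes with reads numbered 21452 and 20723 in control, 20971 and 20119 in csf1ra-/- libraries, and 18383 and 18047 in compound mutants. The part of the lower number of genes with reads in compound mutants in the result was not tested.

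Among the other proteases, the serine-type enzymes and the asparaginyl protease were higher in compound mutants without passing the test. Cathepsin A, a serine carboxypeptidase that also protects neuraminidase and beta-galactosidase, had a ctsa signal of 56.0 and 133 in control, 217 and 101 in csf1ra-/- libraries, and 264 and 409 in compound mutants. Compound mutants were above the other 4 libraries, and their difference from control was 1.91 ± 0.60 (limma adjusted p = 0.100). Tripeptidyl peptidase 1, lost in a childhood form of neuronal ceroid lipofuscinosis, had a tpp1 signal of 28.7 and 37.0 in control, 21.7 and 17.4 in csf1ra-/- libraries, and 77.4 and 107 in compound mutants. Its lowest values were in csf1ra-/-, which lay below control, while the compound mutants lay above. The difference of compound mutants from csf1ra-/- was 2.17 ± 0.56 (limma adjusted p = 0.2498), with the smallest p of that comparison among the 36 genes, and DESeq2 called it.

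Legumain, which cuts after asparagine and processes cathepsins, had an lgmn signal of 239 and 255 in control, 322 and 238 in csf1ra-/- libraries, and 547 and 391 in compound mutants. Control and csf1ra-/- overlapped, and compound mutants were above both, by 0.90 ± 0.47 over control (limma adjusted p = 0.246). The aspartic protease cathepsin D had a ctsd signal of 80.9 and 125 in control, 190 and 73.7 in csf1ra-/- libraries, and 574 and 180 in compound mutants. The compound mutant libraries themselves differed more than 3-fold for ctsd, and the lower of them lay within the range of csf1ra-/-. Cystatin C, the secreted inhibitor of cysteine cathepsins, had a cst3 signal between 66.6 and 117 in all 6 libraries. Its lowest value was in csf1ra-/- and its highest in compound mutants, whose other library, at 69.8, was below both controls.

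The lipid and sugar hydrolases had a median difference of 1.39 between compound mutants and control, with 7 of 7 above 0. Acid ceramidase splits ceramide into sphingosine and a fatty acid, and its copy asah1b had a signal of 194 and 247 in control, 433 and 177 in csf1ra-/- libraries, and 804 and 930 in compound mutants. The compound mutants were well above the other 4 libraries, which overlapped. The difference of compound mutants from control was 1.98 ± 0.54 (limma adjusted p = 0.0813) and from csf1ra-/- it was 1.64 ± 0.54 (limma adjusted p = 0.299). The other copy, asah1a, was 22.2 and 35.1 in the controls and between 46.2 and 120 in the mutant libraries.

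The beta-hexosaminidase subunits, which degrade GM2 ganglioside in the brain, were unlike. The hexa signal was 15.8 and 3.70 in control, 9.82 and 22.0 in csf1ra-/- libraries, and 25.3 and 61.2 in compound mutants, the highest libraries. The hexb signal, a common marker of microglia in mice, ranged from 53.9 to 133 with all groups overlapping. Glucocerebrosidase, encoded by gba and lost in Gaucher disease, was 23.0 and 8.40 in control, 29.0 and 20.4 in csf1ra-/- libraries, and 37.9 and 31.9 in compound mutants. Neuraminidase 1 (neu1) ranged from 2.47 to 16.7 in control and csf1ra-/- and was 22.3 and 14.2 in compound mutants. The acid alpha-glucosidase gene gaa was between 0.157 and 2.86 in 4 libraries, 15.1 in compound mutant replicate 1 and 0 in compound mutant replicate 2, so that its group mean came from 1 library.

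Prosaposin and the Niemann-Pick type C genes showed different patterns. Prosaposin yields the saposins that present lipids to hydrolases, and its psap signal was 565 and 922 in control, 744 and 650 in csf1ra-/- libraries, and 936 and 973 in compound mutants. The compound mutants were just above the higher control, and the difference was 0.40 ± 0.47 (limma adjusted p = 0.607). NPC2 hands cholesterol to NPC1 for export from the lysosome. The npc2 signal was 169 and 441 in control, 539 and 328 in csf1ra-/- libraries, and 740 and 808 in compound mutants, and the last were above all other libraries by 1.497 ± 0.57 over control (limma adjusted p = 0.133). The npc1 signal was 55.1 and 76.3 in control, 131 and 164 in csf1ra-/- libraries, and 144 and 153 in compound mutants. Both mutant groups lay above control and overlapped each other, with differences from control of 1.16 ± 0.49 in csf1ra-/- (limma adjusted p = 0.461) and 1.18 ± 0.49 in compound mutants (limma adjusted p = 0.157). Between the mutant groups the npc1 difference was 0.02 ± 0.49, and it changed sign under both other scalings.

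Among the membrane proteins, the tetraspanin gene cd63 had a signal of 410 and 943 in control, 798 and 542 in csf1ra-/- libraries, and 1136 and 1668 in compound mutants. Control and csf1ra-/- overlapped and compound mutants were above both, by 1.15 ± 0.55 over control (limma adjusted p = 0.209). The lamp2 signal, of a major glycoprotein of the lysosomal membrane, was 55.8 and 80.0 in control, 97.9 and 79.8 in csf1ra-/- libraries, and 165 and 126 in compound mutants. The cln3 signal, of the protein lost in juvenile neuronal ceroid lipofuscinosis, was 17.3 and 9.14 in control, 22.9 and 64.9 in csf1ra-/- libraries, and 40.1 and 51.7 in compound mutants. All mutant libraries were above both controls for cln3, with the highest value in csf1ra-/-, and its difference from control was 1.54 ± 0.70 in csf1ra-/- (limma adjusted p = 0.493).

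The scarb2 signal, of the LIMP-2 receptor that delivers glucocerebrosidase to lysosomes in mammals, was 28.4 and 20.5 in control, 11.7 and 3.61 in csf1ra-/- libraries, and 23.9 and 45.9 in compound mutants. The csf1ra-/- libraries were below every other library, by -1.72 ± 0.76 against control (limma adjusted p = 0.486), and control and compound mutants overlapped. The difference of compound mutants from csf1ra-/- was 2.16 ± 0.76 (limma adjusted p = 0.314). The TRPML1 calcium channel has 2 gene copies in the table. The mcoln1a signal was 22.4 and 15.3 in the controls and between 29.5 and 66.6 in the mutant libraries. The mcoln1b signal was 1.09 and 3.09 in control, 0 and 0.314 in csf1ra-/- libraries, and 0 in both compound mutant libraries. This row passed the filter through the controls alone, so its difference is given as a description.

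The authors' deposited table gives its own comparisons of the groups. At a false discovery rate under 0.05 the authors' deposited table lists 7 of the 36 as higher in compound mutants than control, against 6.5% of its genes, namely ctss1, ctss2.1, ctsbb, ctsz, ctsa, ctsd and asah1b. As lower the authors' deposited table lists 4, against 14.6% of its genes, namely mcoln1b, ctsll and both ctslb rows. For csf1ra-/- against control the authors' deposited table lists 1 as higher, ctsbb with a log2 fold change of 2.98 and a rate of 0.00436, against 0.618% of its genes, and 0 as lower, against 0.133%. For compound mutants against csf1ra-/- the authors' deposited table lists ctss2.1 (1.75, rate 0.0367) and tpp1 (2.24, rate 0.0250) as higher, against 1.99% of its genes. It lists ctsll and both ctslb rows as lower, against 5.66% of its genes. On the reads recovered from the table, edgeR called ctsbb and ctss2.1 as higher in compound mutants than control (0.98% of all genes) and 0 as lower (0.694% of all genes). DESeq2 called ctss1, ctss2.1, ctsbb, ctsz, ctsa and asah1b as higher (5.44% of all genes) and both ctslb rows as lower (11.5% of all genes). The ctss2.1 row was called as higher by limma, edgeR, DESeq2 and the authors' deposited table, and these calls rest on the same libraries and are not independent.

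Other genes of the lysosome, listed by role, were compared in the same fit. Among 29 tested genes of other lysosomal hydrolases and cofactors, 1 passed as higher in compound mutants than control (0.868% of all genes) and 0 as lower (0.347% of all genes). Of the 29, 23 were above 0 (46.4% of all genes) and the median difference was 1.49. Among all genes with at least 50 reads in 2 libraries, 63.9% were above 0. The gene that rose was ggh, gamma-glutamyl hydrolase of folate metabolism. Its signal was 1.09 and 0.617 in control, 43.4 and 10.8 in csf1ra-/- libraries, and 80.6 and 66.4 in compound mutants, with no overlap between any groups, and the rise was 5.33 ± 0.82 (limma adjusted p = 0.0289). The sphingomyelinase gene smpd1 (mean 5.88 in control and 68.0 in compound mutants), the palmitoyl thioesterase gene ppt1 (104 and 511) and the acid phosphatase gene acp2 (5.18 and 63.5) had limma adjusted p-values of 0.0614, 0.0654 and 0.0715. The heparan sulfatase gene sgsh had a mean of 2.42 in csf1ra-/- and 50.9 in compound mutants, and the DNA-degrading dnase2 a mean of 147 in csf1ra-/- and 58.5 in compound mutants, and neither passed.

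Among 27 other lysosomal membrane proteins, 1 passed as higher in compound mutants (0.868% of all genes) and 0 as lower (0.347% of all genes). Of these, 21 were above 0 (46.4% of all genes, and 63.9% of those with at least 50 reads in 2 libraries) and the median was 1.05. The gene that rose was slc37a2, a sugar phosphate transporter of macrophages, with a signal of 42.8 and 85.5 in control, 138 and 98.5 in csf1ra-/- libraries, and 385 and 380 in compound mutants. No groups overlapped for slc37a2, and the rise was 2.64 ± 0.52 (limma adjusted p = 0.0496). The 27 regulators of lysosomal biogenesis and genes of mannose 6-phosphate sorting had a lower median, 0.34, with 0 passing in either direction. Of these, 19 were above 0, where 46.4% of all genes were, and 63.9% of those with at least 50 reads in 2 libraries. The transcription factor gene tfeb, a main activator of lysosomal genes in mammals, was 68.1 and 93.6 in control, 110 and 138 in csf1ra-/- libraries, and 87.5 and 54.1 in compound mutants. Both csf1ra-/- libraries were above the other 4 for tfeb, and control and compound mutants overlapped. The gnptg signal, of a subunit of the enzyme that adds the mannose 6-phosphate tag, was 12.1 and 23.0 in control, 24.9 and 53.8 in csf1ra-/- libraries, and 128 and 143 in compound mutants (2.94 ± 0.61 against control, limma adjusted p = 0.0521).

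Of 7 cystatins and serpins, 1 passed as higher in compound mutants (0.868% of all genes) and 0 as lower (0.347% of all genes). Of the 7, 6 were above 0 (46.4% of all genes, and 63.9% of those with at least 50 reads in 2 libraries) and the median was 1.12. The gene that rose was serpine2, a secreted inhibitor of serine proteases, at 1.496 and 0 in control, 7.48 and 13.6 in csf1ra-/- libraries, and 60.9 and 123 in compound mutants (5.79 ± 0.83, limma adjusted p = 0.0242). In csf1ra-/- against control no gene of these 4 lists passed in limma, with medians of 0.16 for hydrolases, 0.72 for membrane proteins, 0.50 for regulators and 0.59 for cystatins and serpins. Between compound mutants and csf1ra-/- none passed either, and the medians in the same order were 1.04, 0.74, -0.19 and 0.54.

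**Figure D5:**
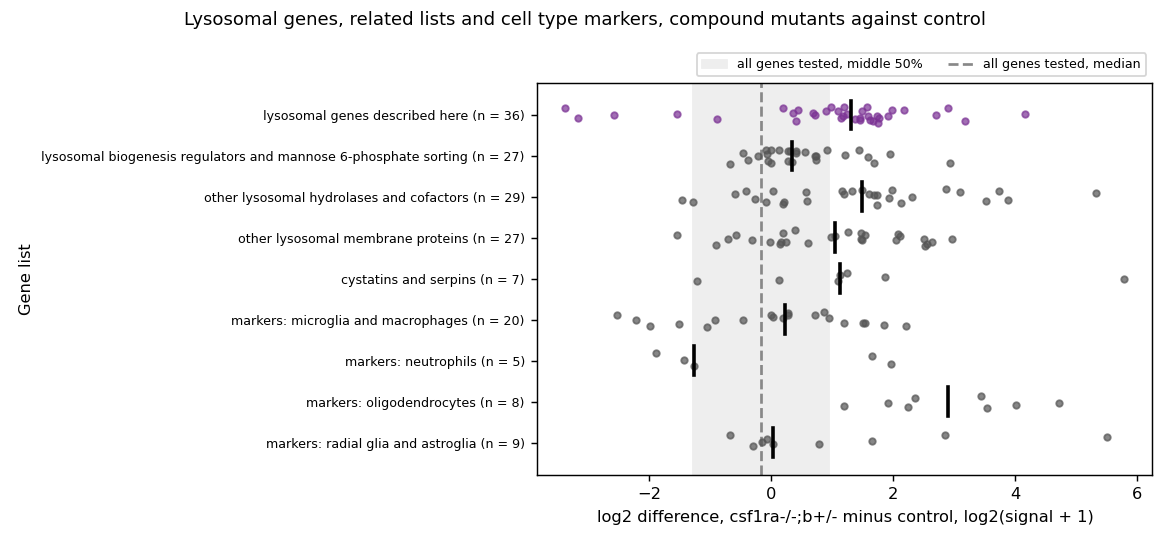
Difference of csf1ra-/-;b+/- from control in log2(signal + 1) for each gene of the lysosomal genes described here, of 4 related lists and of 4 lists of cell type markers (rows), with the median of each list as a black bar. The grey band holds the genes between the lower and upper quartile of all genes tested and the dashed line their median (-0.16). Medians are 1.32 for the lysosomal genes, 1.49 for other hydrolases, 0.34 for regulators and 2.90 for oligodendrocyte markers.

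The cells carried macrophage markers in every group. Of 20 tested microglia and macrophage markers, 0 passed in compound mutants against control, and the median difference was 0.24. Of the 20, 13 were above 0 (46.4% of all genes, and 63.9% of those with at least 50 reads in 2 libraries). Their summed signal was 9200 and 20387 in control, 10750 and 8952 in csf1ra-/- libraries, and 18478 and 18812 in compound mutants, so that compound mutants lay within the range of the controls. This rested on the lipoprotein gene apoeb. The other 19 markers summed to 5072 and 8940 in control, 7313 and 6330 in csf1ra-/- libraries, and 10544 and 12568 in compound mutants, above all other libraries. That sum leaned in turn on mpeg1.1 and lcp1, so neither sum speaks for the markers in general. Compound mutants were above both controls for 8 of the 20 markers (25.3% of all genes) and below both for 6 (33.3% of all genes). The 6 include csf1ra and csf1rb, the genes mutated in these fish, beside havcr1, p2ry12, c1qb and mpeg1.2. The reporter's own gene, mpeg1.1, was 745 and 1080 in control, 644 and 618 in csf1ra-/- libraries, and 1807 and 3757 in compound mutants. The apoeb signal was lower in control replicate 1, at 4128, than in control replicate 2, at 11447, and was 7934 and 6244 in compound mutants. The second perforin-like gene, mpeg1.2, was at 0 reads in compound mutant replicate 1. The purinergic receptor gene p2ry12 was between 23.8 and 36.01 in control and csf1ra-/- and 10.3 and 18.2 in compound mutants. Among the markers that were higher, the actin-bundling gene lcp1 was 268 and 624 in control, 301 and 579 in csf1ra-/- libraries, and 1964 and 1830 in compound mutants (2.21 ± 0.56 against control, limma adjusted p = 0.0740). The myeloid transcription factor gene spi1b was 225 and 499, 502 and 517, and 1194 and 1229 in the same order (1.85 ± 0.51, limma adjusted p = 0.0823). The differences of compound mutants from control were 1.51 for irf8 and 1.19 for the leukocyte gene ptprc. Among those that were lower, the mutated receptor gene csf1rb differed by -2.21 ± 0.54 (limma adjusted p = 0.0706), the smallest p of the list. The havcr1 difference was -1.50, and those of c1qa, c1qb and c1qc were 0.19, -0.45 and 0.29. Markers thus moved in both directions, some of them higher in the same libraries as the lysosomal genes. The part of these markers in the lysosomal values was not tested.

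Oligodendrocyte markers were higher in compound mutants along with the lysosomal genes. Of 8 tested, 3 passed as higher than control (0.868% of all genes), namely the myelin genes plp1b, mpz and cldnk. All 8 were above 0 (46.4% of all genes) and the median was 2.90. Their summed signal was 321 and 382 in control, 369 and 252 in csf1ra-/- libraries, and 2709 and 4342 in compound mutants, and none was at 0 reads in a whole group. Among 9 markers of radial glia and astroglia, glulb passed as higher (0.868% of all genes) and 0 passed as lower (0.347% of all genes). Of the 9, 5 were above 0 (46.4% of all genes) and the median was 0.03. Compound mutants were above both controls for 3 (25.3% of all genes) and below both for 0 (33.3% of all genes). The summed signal was 779 and 2474, 906 and 753, and 2008 and 1632 in the same order of groups, most of it glula. The glulb signal was 3.54 and 8.64, 31.1 and 31.4, and 286 and 315 in that order. The part of either cell type in the lysosomal values was not tested.

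No other list of cell type markers held a gene that passed in limma in compound mutants against control. Summed neutrophil markers (5 tested) were 44.5 and 184 in control, 147 and 116 in csf1ra-/- libraries, and 217 and 251 in compound mutants, where nccrp1 alone gave 211 and 230. Compound mutants were above both controls for 2 of the 5 (25.3% of all genes), namely nccrp1 and npsn, by 1.65 and 1.96. They were below both for 2 (33.3% of all genes), namely cpa5, by -1.25, and the defining gene mpx, at 0 reads in compound mutants. The mmp9 difference was -1.42, and its groups overlapped. The median difference of the 5 was -1.25. Lymphocyte markers (8) summed to between 27.2 and 123, with a median difference of 1.13 between compound mutants and control. Of the 8, 6 were above 0 (46.4% of all genes). Of these, ighz was 3.67 and 5.19 in control and 25.5 and 20.4 in compound mutants, and cd79a was 5.58 and 12.1 and then 28.4 and 49.1. The 2 below 0 were the T cell genes zap70 and il2rb, by -3.13 and -1.19. The zap70 signal was 6.12 and 9.76 in control, with 0 reads in compound mutants. The il2rb signal was 2.45 and 1.48 in control and 0.647 and 0 in compound mutants. Neuronal markers (6) summed to between 8.34 and 49.0, and vessel markers (3) to between 156 and 411. Nearly all of the vessel sum was pecam1, while kdrl and cdh5 were at most 4.79 in any library. Markers of metaphocytes and epithelium (5) summed to between 3.80 and 28.1, with krt5 at 0 reads in compound mutants. The list for osteoclasts and melanophores, 5 genes of which ctsk is one, summed to 59.8 and 167 in control, 125 and 161 in csf1ra-/- libraries, and 308 and 360 in compound mutants, nearly all of it ctsk.

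Replicates agreed more closely in compound mutants than in the other groups. The median gap between the 2 libraries of a group over the 36 genes, in log2(signal + 1), was 0.82 for the controls, 0.55 for csf1ra-/- and 0.37 for compound mutants. Over all genes tested it was 0.91, 0.83 and 0.57, and over the 12620 with at least 50 reads in 2 libraries it was 0.89, 0.81 and 0.67. The compound mutant libraries were the deepest, and 4 of the 36 genes had 0 reads in both, which gives a gap of 0. The part of depth and of such genes in these gaps was not tested. Control replicate 1 held the lowest value of 17 of the 36 genes, against 18.9% of all genes, and the compound mutant libraries held the highest value of 13 and 14, against 15.6% and 19.4% of all genes. Both compound mutant libraries were above the other 4 for 19 of the 36, against 14.4% of all genes.

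Some further rows lie next to the choice by symbol. The row that RefSeq names laptm5, a lysosomal membrane protein of blood cells, carries no symbol in the table (ENSDARG00000101785) and had a signal of 282 and 884 in control, 738 and 663 in csf1ra-/- libraries, and 1039 and 1766 in compound mutants (1.44 ± 0.60 against control, limma adjusted p = 0.162). The galactosylceramidase copies, which act on myelin lipid, differed in opposite directions between compound mutants and control, by 1.07 ± 0.69 for galcb and -2.20 ± 0.84 for galca (limma adjusted p = 0.335 and 0.135). Against csf1ra-/- both were higher in compound mutants, by 1.40 and 1.43. The galcb signal was between 14.5 and 37.3 in control and csf1ra-/- and 67.4 and 37.8 in compound mutants. The galca signal was 16.6 and 17.2 in control, 0.585 and 0.314 in csf1ra-/- libraries, and 1.62 and 4.79 in compound mutants, so that every mutant library was below both controls. Its difference in csf1ra-/- was -3.63 ± 0.84 (limma adjusted p = 0.359). The lamp1 row was between 14.01 and 23.3 in all libraries. A second cathepsin Z row, in capitals in the table, had 18.0 in compound mutant replicate 1 and at most 2.81 in the others.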

How the data were processed

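The 36 lysosomal genes and all lists were chosen with earlier results of these data known. Per the labels' protocols, brains were trypsinized, a Percoll gradient enriched the cells, GFP-positive cells were sorted, and low-input cDNA was sequenced as single reads. HISAT2, edgeR and GRCz10 are named in the submitters' processing notes; versions, annotation and strand setting are not given in the sources. One description names both receptors as mutant in the compound mutants, and the genotype label was followed.

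The authors deposited 1 table of signal values, headed CPM, which are reads over an effective library size. Dividing by the smallest value of a library gave whole numbers within a tolerance of 0.001 for 100.0% of values, so whole reads were recovered. The log2 fold changes and the false discovery rates, which are adjusted p-values, are the authors' deposited comparisons. Another 19 value columns were not used.

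Computed here were limma tests (3.58.1, R 4.3.3, intensity trend, robust) on log2(signal + 1), with 3 group means and no covariate, for genes reaching a signal of 1 in 2 or more libraries, and Benjamini-Hochberg adjustment over them. The fit was run on simulated reads with known changes and a common spread for all genes. That run does not measure its error rate at the spread of these libraries. Recovered reads went to edgeR 4.0.16 (quasi-likelihood) and DESeq2 1.42.0 as alternatives. Other alternatives were scaling, pseudocount, filter, samples fitted, robust estimation, replicate block and each library left out. Named lysosomal genes were those past the threshold, the 8 with the smallest p of each comparison, the 10 with the highest mean signal, and those with 2 rows; of related lists, up to 4 per comparison. RefSeq's GRCz12tu table matched 36 of 36 genes and gave names and neighbours only. No sequences or coordinates were used.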

Additional observations from a re-analysis of the deposited data

How the results depend on the processing

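With 2 libraries a group, calls depended on the spread estimate. For compound mutants against control the count of lysosomal genes that passed, 1 in the main setting, was 2 with edgeR, 8 with DESeq2, 0 with the 4 compared libraries alone or a pseudocount of 0.25, 3 with at least 50 reads in 2 libraries, and 0 to 0 with a library left out. For compound mutants against control the shares of all genes called as higher and lower were 0.868% and 0.347% in the main setting. They were 0.98% and 0.694% with edgeR, and 5.44% and 11.5% with DESeq2. The setting with at least 50 reads tested 32 lysosomal genes among 12620, and counts over all genes in the other settings are given below. DESeq2 gave 1 for csf1ra-/- against control and 4 for compound mutants against csf1ra-/-. Replicates of the same title number shared no clear difference over all genes tested: correlations of replicate 1 minus replicate 2 between groups were 0.006, 0.018 and 0.012. Such correlations cannot tell whether libraries were handled in pairs. With the replicate block, 3 lysosomal genes passed in compound mutants against control (ctss2.1, ctsbb and ctsba), and over all genes the counts were 11, 576 and 34.

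Over all genes, counts for csf1ra-/- against control, 0 in the main setting, were 8 with edgeR, 259 with DESeq2, 19 with 4 libraries, 5 with total reads and with median-ratio scaling, 3 with a pseudocount of 4, 13 with at least 50 reads, and 0 to 12 with a library left out. For compound mutants against control, 259 in the main setting, they were 3617 with DESeq2, 0 with 4 libraries, 95 with a pseudocount of 0.25, 872 with at least 50 reads, and 0 to 137 with a library left out. For compound mutants against csf1ra-/-, 2 in the main setting, they were 18 with edgeR, 1459 with DESeq2, 5 without robust estimation, 0 with 4 libraries, 27 with total reads, 5 with median-ratio scaling, 4 with a pseudocount of 4, 48 with at least 50 reads, and 0 to 8 with a library left out.

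The median of the lysosomal genes in compound mutants against control moved to 0.62 with total reads and was between 1.008 and 1.32 with a library left out. For csf1ra-/- against control it was between -0.04 and 0.54 with a library left out. The ctsba difference between csf1ra-/- and control reversed to -0.11 without control replicate 1 and was 5.46 without control replicate 2. The causes of these shifts were not tested. Depth limits the genes with few reads, ctsll, mcoln1b, gaa and ctslb among them.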
